A study of Mus musculus with 20 samples.

Results

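The comparison described here is the near-burning dual-laser exposure, I3-E3-SRS, against the unexposed negative control (NC) of the same batch, in N2A cells, a mouse neuroblastoma line. The 5 libraries were chosen by their labels, 3 of I3-E3-SRS and 2 of NC in batch 2, out of 20 libraries in the series. Stimulated Raman scattering (SRS) microscopy overlaps a pump and a Stokes laser, here at 796 nm and 1040 nm, and I3-E3-SRS scanned each field a single time at an average intensity of 397 mW/µm2, a setting at which repeated scans burned some cells. Whole wells were exposed and lysed an hour later, and NC wells were not exposed to a laser. The study's methods describe 3 unexposed wells per experiment, and 2 unexposed libraries of batch 2 were analysed here. Library numbers in the labels are not tied to separate cultures, and the p-values therefore refer to variation among these libraries, part of which may be technical.

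The comparison asks whether the transcripts of a cell differ an hour after a scan close to the burning limit. Cells that meet heat, oxidants or membrane damage are known to switch on rapid programmes within this time. Immediate-early genes such as Fos and Egr1 are transcribed from factors already present in the cell, heat shock factor drives the Hsp70 and Hsp90 chaperones, NRF2 drives enzymes of glutathione and thioredoxin metabolism, and p53 drives Cdkn1a, Mdm2 and Gadd45a after DNA damage. In bulk RNA a loss of cells that respond and a smaller response in each cell cannot be told apart.

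No gene passed the threshold. Of 12031 genes tested with edgeR's quasi-likelihood test, 0 (0%) had a Benjamini-Hochberg adjusted p under 0.05, 0 passed the Bonferroni correction, and limma-voom and limma-trend also called 0. DESeq2 called 15 genes, 5 higher and 10 lower in I3-E3-SRS, of which 3 had a sequence of their own. At an unadjusted p under 0.05 edgeR had 184 genes (1.53%) higher and 300 (2.49%) lower. The 3 I3-E3-SRS libraries all lay above both NC libraries for 1056 genes (8.78%) and all below for 1182 genes (9.82%).

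The stress and cell cycle markers, 26 genes that report heat, oxidant, DNA damage, endoplasmic reticulum and growth responses, held 23 tested genes, with 13 above NC and 10 below and a median log2 fold change of 0.02, beside -0.00 over all genes tested. None of the 23 passed the threshold, and Hspa1a, Hspa1b and Arrdc4 were too low to be tested. Atf3, Trib3, Txnip, Jun and Ccnd1 had log2 fold changes from -0.11 to 0.16. The highest value among them was that of Fos and the lowest that of Egr1, both immediate-early transcription factors.

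Fos (chr12:85473890-85477273 of GRCm38, plus strand), a subunit of the AP-1 factor, had 1.504 and 2.39 CPM in the NC libraries (CPM, the counts of a gene relative to the TMM-scaled library size) and 4.33, 5.72 and 3.44 CPM in the I3-E3-SRS libraries. Every exposed library was above both NC libraries, at 8 and 21 estimated reads in NC and 38, 61 and 43 in I3-E3-SRS. The log2 fold change was 1.15 with a standard error (SE) of 0.35 and a 95% interval from 0.32 to 1.99, and the adjusted p of edgeR was 1.00. In batch 1, where the same line was sequenced with other exposures, all 15 libraries, scaled together with those of batch 2, had 5.55 to 7.65 CPM of Fos, and its unexposed libraries had 6.18 to 7.02 CPM. Of the exposed libraries of batch 2, 2 lay between the NC of their own batch and the lowest batch 1 level, and the third lay within the batch 1 range.

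The 250 bases upstream of the Fos start are shown because Fos had the largest difference of any marker (RefSeq, GRCm38.p6, chr12:85473640-85473889, plus strand). Capitals mark TGACGT, the core of the element that binds CREB, which was searched on both strands and is 66 bases upstream of the start.

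Fos: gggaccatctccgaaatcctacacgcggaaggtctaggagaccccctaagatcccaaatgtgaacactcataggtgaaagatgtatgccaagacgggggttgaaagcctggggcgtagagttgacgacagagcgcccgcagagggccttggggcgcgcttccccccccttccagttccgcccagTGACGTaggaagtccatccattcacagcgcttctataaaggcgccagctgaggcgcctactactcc

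These letters occur in 6.47% of 32851 windows of the same length in the table, and TATAAA, also present in the Fos window, in 12.4%. The longer form TGACGTCA, which overlaps the shorter one, occurs in 1.55% of windows and not in that of Fos. Such matches are a description of the sequence only.

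The other immediate-early genes were spread around NC. Of 38 listed, 32 were tested, with 16 above and 16 below and a median of -0.01. Egr1 had 21.1 and 37.0 CPM in NC and 20.2, 17.5 and 27.3 CPM in I3-E3-SRS, so that the groups overlapped (log2 fold change -0.44, SE 0.26, and -0.76 without NC replicate 1). Arc, a synaptic protein induced by activity, had 9.21 and 9.12 CPM in NC and 10.6, 11.3 and 12.8 CPM in I3-E3-SRS. Its values did not overlap, and its interval ran from -0.03 to 0.70. Spry4, a feedback inhibitor of receptor tyrosine kinase signalling, went the other way, with 12.6 and 17.6 CPM in NC and 9.58, 11.6 and 11.9 CPM in the exposed libraries (log2 fold change -0.46, SE 0.19). Dusp6, a phosphatase of the same cascade named after its value was seen, had 63.9 and 85.2 CPM in NC against 57.8, 50.6 and 71.0 CPM. For both feedback genes NC replicate 2 was the highest of the 5 libraries. Jun, Junb, Fosl2, Myc and Srf, named likewise after their values were seen, had log2 fold changes from -0.05 to 0.04.

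**Figure D1:**
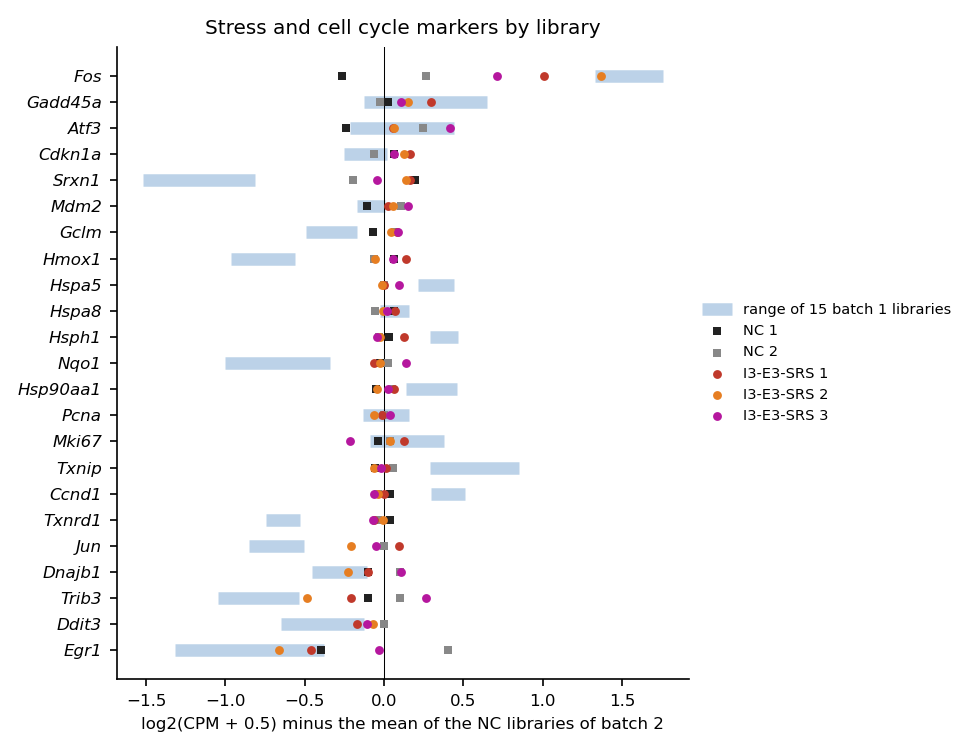
Levels of the 23 tested stress and cell cycle markers in each library of batch 2, as log2(CPM + 0.5) minus the mean of the 2 NC libraries (squares), with I3-E3-SRS as circles and the range of the 15 batch 1 libraries as pale bars. Fos has its 3 circles to the right of both squares, and most other markers lie within 0.5 of zero while their batch 1 bars lie to either side.

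The heat shock genes lay on both sides of NC. Of 34 listed, 31 were tested, with 19 above and 12 below NC and a median of 0.02. Dnajb1, the cochaperone that rises early after heat, had 76.5 and 88.2 CPM in NC and 76.6, 70.2 and 88.4 CPM in I3-E3-SRS, with an interval from -0.33 to 0.18. Hsph1, a nucleotide exchange factor for Hsp70, had an interval from -0.14 to 0.18. Hspa8, the constitutive Hsp70, had an interval from -0.11 to 0.16 and Hsp90aa1, the inducible cytosolic Hsp90, from -0.12 to 0.15, with 55.2% and 48.5% of their words unique, so that reads shared with other genes cannot be told apart. The strongly heat-inducible Hsp70 genes Hspa1a and Hspa1b were among those not tested. Dnaja1, a further Hsp40 cochaperone, had the highest value among members with at least 10 CPM, 0.11 with an SE of 0.08, and Hspa2 the lowest, -0.23 with an SE of 0.19. Without NC replicate 1 they were at -0.00 and -0.01. Bag3, a partner of Hsp70 named after its values were seen, had 242 and 244 CPM in NC and 229, 213 and 220 CPM in I3-E3-SRS. Its exposed libraries were all below NC and its interval was -0.28 to -0.00.

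The NRF2 list held 34 tested genes of 36, with 21 above and 13 below and a median of 0.01. Hmox1, heme oxygenase, had 87.1 and 79.9 CPM in NC and 91.7, 80.2 and 86.9 CPM in I3-E3-SRS. Srxn1 (sulfiredoxin) had 26.5 and 20.1 CPM in NC and 25.9, 25.4 and 22.4 CPM, and Nqo1, a quinone reductase, 10.9 and 11.3 CPM and 10.6, 10.9 and 12.2 CPM. In all 3 the groups overlapped. The intervals of Txnrd1 and Gclm, enzymes of thioredoxin and glutathione metabolism, ran from -0.18 to 0.09 and from -0.08 to 0.22. Gpx1, a glutathione peroxidase, had the highest value of the list, 0.11 with an SE of 0.11. Slc7a11, the cystine transporter, had the lowest, -1.36 with an SE of 0.45, and this value rested on 1 control library. It had 297 CPM in NC replicate 1 and 77.3 CPM in NC replicate 2, against 74.1, 71.6 and 70.5 CPM in I3-E3-SRS, and the log2 fold change without NC replicate 1 was -0.10.

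The p53 and DNA damage list had 28 tested genes, 14 above and 14 below, with a median of -0.00. Cdkn1a, the cell cycle inhibitor p21, had 48.5 and 44.5 CPM in NC and 52.0, 50.7 and 48.6 CPM in I3-E3-SRS. Gadd45a had 13.7 and 13.2 CPM in NC and 16.6, 15.01 and 14.6 CPM. Both lay above NC in each exposed library, by log2 differences of 0.12 (SE 0.08) and 0.19 (SE 0.13), while Mdm2, the ubiquitin ligase of p53, overlapped (interval -0.12 to 0.26). In the unfolded protein and integrated stress response, 36 genes were tested, with 16 above and 20 below and a median of -0.01. Ddit3, which encodes CHOP, had 23.1 CPM in both NC libraries and 20.5, 22.0 and 21.4 CPM in I3-E3-SRS. Hspa5, the chaperone BiP, had an interval from -0.11 to 0.16. Chac1, a glutathione-degrading target of ATF4, had the lowest value of that list, -0.31 with an SE of 0.19, and Xbp1 the highest, 0.10 with an SE of 0.08, and without NC replicate 1 they were at -0.51 and 0.04. Sesn2, a stress-inducible regulator of growth signalling, had 68.3 and 84.7 CPM in NC and 52.8, 61.3 and 76.2 CPM in the exposed libraries.

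Lists on membrane and DNA repair were close to NC as well. Plasma membrane repair had 25 tested genes with 14 above (median 0.02), and DNA repair 50 with 28 above (median 0.02). In DNA repair Palb2, which bridges BRCA1 and BRCA2, was highest at 0.31 (SE 0.14) and Apex1, an endonuclease of base excision repair with 42.9% unique words, lowest at -0.33 (SE 0.15). Without NC replicate 1 these were 0.19 and -0.075. Among 27 tested apoptosis genes 20 were above NC (74.1%, beside 48.6% of all genes tested). Their median was 0.07, and 0.06 without NC replicate 1. By library the list median was 0.01 and -0.01 in NC and 0.13, 0.07 and 0.06 in I3-E3-SRS, so that the groups did not overlap. In 7 genes (25.9%, beside 8.78% of all genes tested) all exposed libraries were above both NC libraries, and in 0 below (9.82% of all). Casp9, the initiator caspase of the mitochondrial route, overlapped at -0.13 (SE 0.13), and at 0.02 without NC replicate 1. The 7 members hold genes of opposite roles, among them Bcl2, which protects cells, and Bbc3, which kills them, both named after their values were seen. None of the 27 had an unadjusted p under 0.05.

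Genes of G2 and mitosis mostly had values slightly below NC. Of 50 G2 and mitosis genes tested 40 were below NC and 10 above (20%, beside 48.6% of all genes tested), with a median of -0.04, and -0.09 without NC replicate 1. By library the list median was -0.05 and 0.05 in NC and -0.08, -0.05 and 0.00 in I3-E3-SRS, so that the groups overlapped. In 7 genes (14%, beside 9.82% of all genes tested) all exposed libraries were below both NC libraries, and in 0 above (8.78% of all). Aurkb, the kinase of the chromosomal passenger complex, had 80.8 and 83.2 CPM in NC and 67.1, 72.2 and 77.0 CPM in I3-E3-SRS. Its log2 fold change of -0.19 (SE 0.08) had the 1 unadjusted p under 0.05 of the list. Mki67, a marker of cycling cells, had 611 and 642 CPM in NC and 683, 644 and 539 CPM, on either side of NC. The S phase list had 21 of 44 genes above NC and a median of -0.00, and Pcna, the sliding clamp of replication, had an interval from -0.15 to 0.13.

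**Figure D2:**
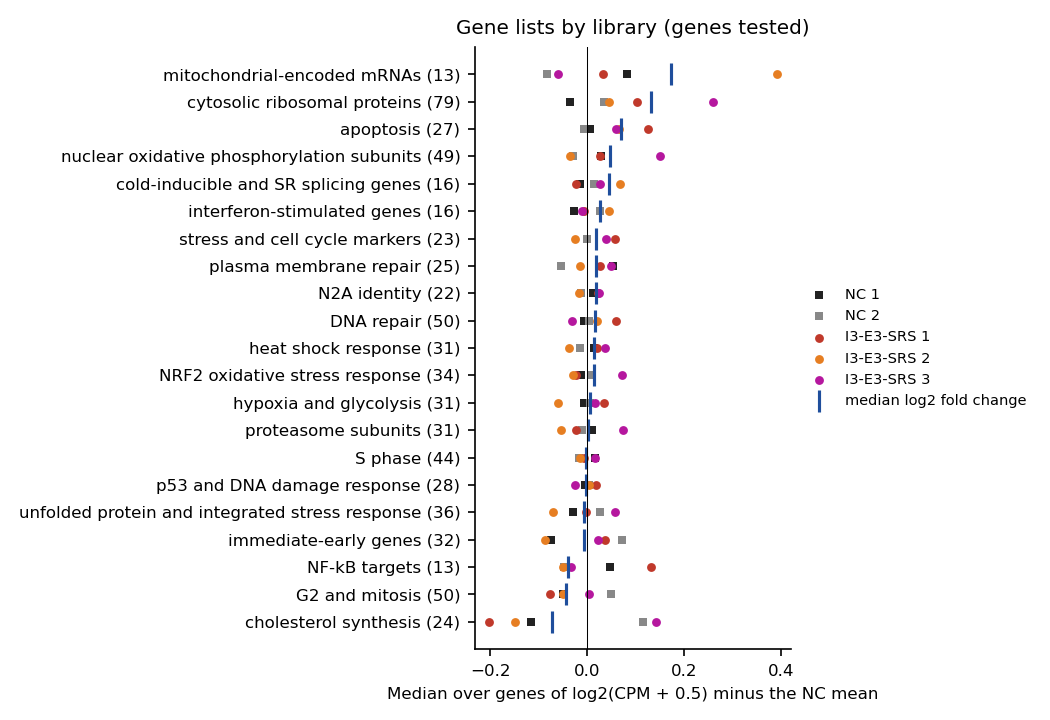
Median over the tested genes of each list of log2(CPM + 0.5) minus the mean of the NC libraries, for each library, with the number of tested genes in parentheses and the median log2 fold change of the list as a blue bar. In cholesterol synthesis the exposed libraries fall on both sides of the NC libraries, in the mitochondrial mRNAs 2 lie between them and 1 above, and in the ribosomal protein genes all 3 lie above both.

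Cholesterol synthesis had 22 of 24 tested genes below NC, with a median of -0.07. The libraries of each group disagreed, however. Sqle, squalene epoxidase, named after its values were seen, had 196 and 239 CPM in NC and 185, 193 and 253 CPM in I3-E3-SRS. The median of the list relative to the NC mean was -0.12 and 0.12 in the NC libraries and -0.20, -0.15 and 0.14 in the exposed libraries, so that the groups overlapped, and without NC replicate 1 the median log2 fold change was -0.20. Mvk, mevalonate kinase, was the lowest at -0.25 (SE 0.14). Among members with at least 10 CPM Pmvk was the highest at 0.10 (SE 0.12), which was -0.02 without NC replicate 1. A member under 10 CPM was higher, at 0.17.

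Ribosomal protein genes mostly had values above NC. Of 79 cytosolic ribosomal protein genes 67 were above (84.8%, beside 48.6% of all genes tested), with a median of 0.13. In 22 of them (27.8%, beside 8.78% of all genes tested) all exposed libraries were above both NC libraries. At an unadjusted p under 0.05 there were 19 (24.1%, beside 1.53% of all) in that direction and 1 in the other (2.49% of all). The median of the list was -0.04 and 0.04 in the NC libraries and 0.10, 0.04 and 0.26 in the exposed libraries, the last being that of replicate 3. Rps27a, the highest, had 263 and 684 CPM in NC and 731, 705 and 845 CPM in I3-E3-SRS, so that most of its difference lay between the NC libraries. Rps29, named after its values were seen, had 221 and 229 CPM in NC and 312, 295 and 365 CPM (log2 fold change 0.53, SE 0.10). A pseudogene with all of its words in Rps29 had 122 CPM in NC replicate 1 and 0 in the other 4 libraries. Summed with it, Rps29 had 343 and 229 CPM in NC and 312, 295 and 365 CPM in I3-E3-SRS, which overlap. Rpl10, the lowest, had 456 and 267 CPM in NC and 181, 223 and 179 CPM. Only 1 of the 79 genes has at least 95% of its sequence to itself, and the summed level of the 79 genes was 37979 and 41277 CPM in NC and 43010, 41058 and 47589 CPM in the exposed libraries. Their named pseudogenes, 288 in the table, summed to 9514 CPM in NC replicate 1 and 5656 to 6589 CPM in the other 4 libraries. Genes and named pseudogenes together summed to 47493 and 47185 CPM in NC and 48930, 46714 and 54178 CPM in I3-E3-SRS, so that 1 exposed library lay below both NC libraries and 2 above.

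Of the 13 mRNAs of the mitochondrial genome 11 were above NC, with a median of 0.17. The list median by library was 0.03, 0.39 and -0.06 in the exposed libraries and 0.08 and -0.08 in NC. Only 1 of the 13 has at least 95% unique words, so that reads shared with other genes cannot be told apart. mt-Nd3, a subunit of complex I with 1.89% unique words, had 186 and 267 CPM in NC and 410, 354 and 401 CPM in I3-E3-SRS. mt-Atp8, of the ATP synthase, had 642 CPM in NC replicate 1 and 112 CPM in NC replicate 2 against 185, 269 and 240 CPM. The log2 fold change of mt-Atp8 was -0.69 (SE 0.58) and became 1.05 without NC replicate 1. Nuclear subunits of oxidative phosphorylation had 41 of 49 genes above (83.7%, beside 48.6% of all genes tested) and a median of 0.05. By library the list median was 0.03 and -0.03 in NC and 0.03, -0.03 and 0.15 in I3-E3-SRS, so that the groups overlapped. Cox7c, of complex IV, was the highest at 0.41 (SE 0.16), which was 0.16 without NC replicate 1.

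The remaining lists were close to NC. Hypoxia and glycolysis had 18 of 31 genes above and a median of 0.01. A member under 10 CPM had its lowest value, -0.38. The lowest of at least 10 CPM was Gapdh, a glycolytic enzyme, with 568 and 577 CPM in NC and 497, 478 and 549 CPM in I3-E3-SRS (log2 fold change -0.17, SE 0.07). Gapdh has 71.9% unique words. The highest member of the list was Bnip3, a mitophagy receptor with 43.0% unique words, with 16.4 and 16.3 CPM in NC and 24.7, 17.9 and 20.5 CPM in I3-E3-SRS. Cold-inducible and SR splicing genes had 12 of 16 above (median 0.05), interferon-stimulated genes 10 of 16 (median 0.03) and proteasome subunits 17 of 31 (median 0.00). NF-kB targets had 6 of 13 above and a median of -0.04, which was 0.15 without NC replicate 1. Fewer than 10 genes could be tested of the replication-dependent histones, the MondoA targets, the metallothioneins and the nuclear-retained RNAs.

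The N2A identity genes were measured at 22 of 25 genes. Per length, Phox2a and Hand2, factors of the sympathetic lineage, had 91.1 to 201 TPM and 137 to 315 TPM across the 5 libraries, and Tubb3, a neuronal tubulin, 514 to 848 TPM, with NC replicate 1 the lowest in each. Others went the other way, Gata3 with 47.5 TPM in NC replicate 1 and 10.3 to 13.2 TPM elsewhere and Map2 with its highest value, 36.0 TPM, in that library. In CPM the summed level of the 25 genes was 5281 to 5390 in NC and 5227 to 5498 in I3-E3-SRS. Markers of other cells were mostly at or near 0. Of the macrophage list 4 of 10 genes and of the epithelial list 5 of 8 were at 0 in all 5 libraries, and their sums were 3.12 to 7.14 CPM and 0.56 to 0.88 CPM. The endothelial sum was 12.4 and 13.7 CPM in NC and 8.56 to 11.4 CPM in the exposed libraries, the glial sum 5.36 to 7.79 CPM, the erythroid sum 0.08 to 1.69 CPM and the fibroblast sum 128 to 129 CPM in NC and 116 to 125 CPM in I3-E3-SRS, nearly all of it Fbn1, an extracellular matrix gene.

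The libraries held 5473588 to 12698770 estimated counts. NC replicate 1, the shallowest, stood apart from the other 4. Transcripts annotated as retained introns took 4.64% of its count and 2.28% to 2.84% elsewhere, and pseudogenes 4.87% against 2.75% to 2.95%. Over genes of at least 10 CPM the SD of the log2 difference was 0.46 to 0.48 between NC replicate 1 and any other library and 0.20 to 0.22 between the others.

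The spread of NC replicate 1 depended on the sequence of the gene. Each gene was graded by the share of its 31-base words that occur in no other gene. Over 7505 tested genes with at least 95% such words the SD of the log2 difference between the NC libraries was 0.29, and over 522 genes with under 20% it was 1.87. Between I3-E3-SRS replicate 1 and NC replicate 2 the same values were 0.23 and 0.95. Among the 522 genes 24.9% had a log2 fold change beyond 1, 110 lower and 20 higher in I3-E3-SRS, and among the 7505 it was 0.37%, 19 lower and 9 higher. Large fold changes did not depend on NC replicate 1 alone. Without it 93 of the 522 genes were beyond 1, beside 130 with it, and 49 of the 7505, beside 28 with it.

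**Figure D3:**
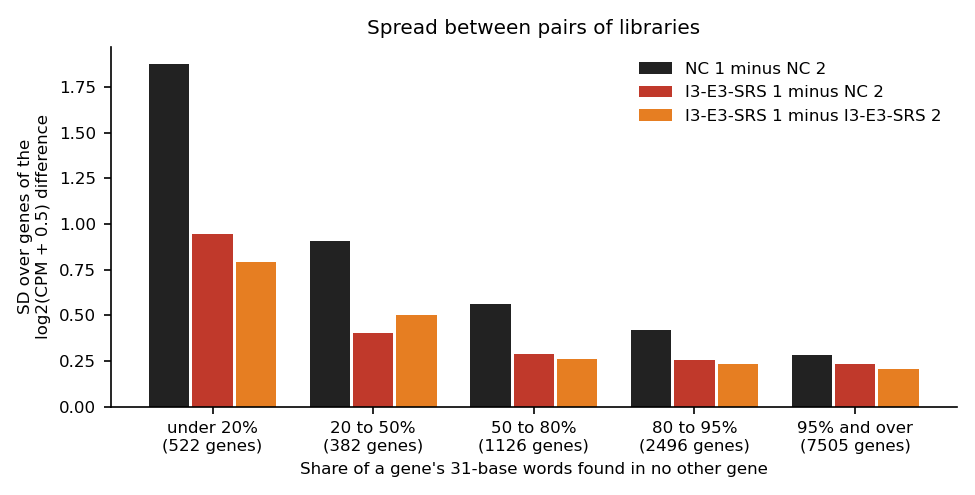
SD over genes of the difference in log2(CPM + 0.5) between 3 pairs of libraries, in 5 classes of tested genes by the share of their 31-base words found in no other gene. In the class under 20% the bar for the NC libraries reaches 1.87 and that for the exposed pair 0.79, and at 95% and over they are 0.29 and 0.21.

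The sequences of 2 pseudogenes and their parents are shown because they let a reader see how little separates the genes with the largest differences. Rpsa-ps10, a processed pseudogene (chr3:150072658-150073542, minus strand), shares 700 of its 855 words with Rpsa, a protein of the small ribosomal subunit (chr9:120127689-120132369, plus strand), and Bloc1s2-ps (chr2:52619754-52620185, plus strand) shares 371 of 402 with Bloc1s2, a subunit of the BLOC-1 trafficking complex. The stretches are coding positions 100 to 219 of Rpsa and 8 to 127 of Bloc1s2 in GENCODE vM21, with differing bases in capitals.

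Rpsa-ps10: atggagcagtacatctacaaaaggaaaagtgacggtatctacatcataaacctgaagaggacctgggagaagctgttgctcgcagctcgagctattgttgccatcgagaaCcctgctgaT

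Rpsa: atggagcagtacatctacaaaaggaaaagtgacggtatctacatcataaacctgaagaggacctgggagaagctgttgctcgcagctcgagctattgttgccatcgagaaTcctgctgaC

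Bloc1s2-ps: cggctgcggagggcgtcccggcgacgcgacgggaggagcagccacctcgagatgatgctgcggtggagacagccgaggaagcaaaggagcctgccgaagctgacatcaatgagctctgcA

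Bloc1s2: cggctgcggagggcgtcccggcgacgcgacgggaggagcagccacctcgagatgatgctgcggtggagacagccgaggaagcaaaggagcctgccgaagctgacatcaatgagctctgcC

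The Rpsa pair differs at 6 of 885 aligned bases, with 2 differences in the stretch, and the Bloc1s2 pair at 1 of 429. Rpsa-ps10 had 161 and 78.8 CPM in NC and 43.8, 21.5 and 20.2 CPM in I3-E3-SRS, and Rpsa had 1407 and 1560 CPM in NC and 1567, 1563 and 1748 CPM. Summed over the pair the values were 1568 and 1639 CPM in NC and 1611, 1584 and 1769 CPM in I3-E3-SRS, which overlap. Bloc1s2-ps had 8.65 and 3.65 CPM in NC and 0 in each exposed library, and with Bloc1s2 added the pair had 53.2 and 45.0 CPM in NC and 46.2, 46.1 and 54.1 CPM. Pseudogenes and parents with shared words were therefore read as uncertain, and the genes below are those with a sequence of their own. These pseudogenes were named after their values were seen.

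**Figure D4:**
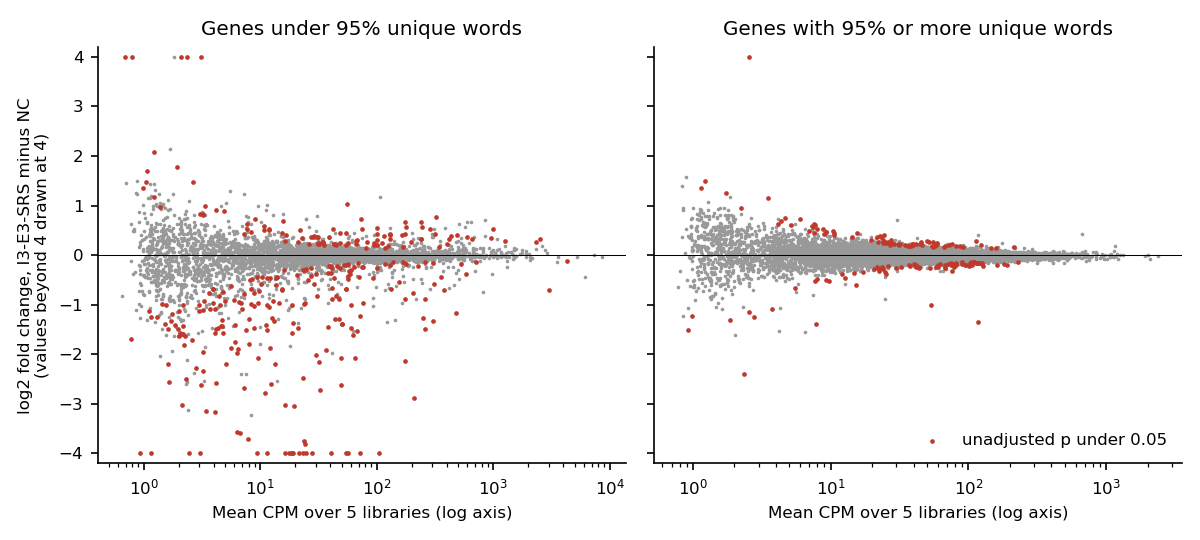
Log2 fold change of I3-E3-SRS minus NC against the mean CPM over the 5 libraries on a log axis, for genes under 95% unique words (left) and at or above it (right), with genes at an unadjusted p under 0.05 in red. The left panel has red points down to the lower drawing limit, and in the right panel nearly all points lie within 1 of zero.

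Among the 7505 genes with a sequence of their own, 654 (8.71%) had all exposed libraries above both NC libraries and 700 (9.33%) all below, close to the 8.78% and 9.82% of all genes tested. None passed the threshold when all 12031 genes were tested. A separate fit of genes with a sequence of their own filtered, scaled and estimated the variation anew over 7538 genes. In it 3 passed: Trappc8, which was higher in I3-E3-SRS, and Pi4ka and Olfr729, which were lower. DESeq2 on all genes called the same 3 of this class. When NC replicate 1 was also left out, only Trappc8 passed, so that 2 of the 3 calls were lost. In the fit of all genes without that library their log2 fold changes were -0.81 for Pi4ka and -1.10 for Olfr729.

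Trappc8, a subunit of a complex that tethers vesicles at the Golgi, had 0 CPM in both NC libraries and 4.22, 4.88 and 3.68 CPM in the exposed libraries, from 37, 52 and 46 estimated reads. Against a limit of 3 counts over both NC libraries, which covers counting error only, the level was at least 20.01-fold higher, at an adjusted p of 0.30 by edgeR over all genes. In batch 1 the gene ranged from 0.50 to 5.81 CPM over 15 libraries and from 1.39 to 5.81 CPM in unexposed libraries, so the zero of the batch 2 controls lay outside that range and the exposed libraries inside it. Of its 5 annotated transcripts 1 was in the tables used here, of 2703 bases. Pi4ka (chr16:17280351-17406314, minus strand), a phosphatidylinositol kinase, had 87.1 and 66.0 CPM in NC and 49.5, 33.9 and 30.96 CPM in I3-E3-SRS, a log2 fold change of -1.01 (SE 0.21). It ranged from 7.56 to 92.1 CPM in batch 1, also with 1 of its 11 transcripts in the tables. Olfr729 (chr14:50144731-50152910, minus strand), an olfactory receptor gene, had 14.9 and 10.0 CPM in NC and 5.13, 4.41 and 4.56 CPM (log2 fold change -1.39, SE 0.22), within a batch 1 range of 0.38 to 21.1 CPM. For all 3 genes the exposed level lay inside the range seen in batch 1 across other settings.

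Fos, described above, was among the 12 genes of this class chosen for higher values in I3-E3-SRS, and the other 10 besides Trappc8 differed by 1.14 to 1.54 times. Neither these 11 nor Trappc8 passed in the main fit of all genes. Id1 (chr2:152736251-152737410, plus strand), an inhibitor of differentiation factors induced by BMP signals, had 105 and 95.8 CPM in NC and 116, 123 and 128 CPM in I3-E3-SRS (log2 fold change 0.29, SE 0.07). Tmem169 (chr1:72284369-72303104, plus strand), a membrane protein, had 5.64 and 5.70 CPM in NC and 9.24, 8.91 and 8.16 CPM (0.63, SE 0.17). Recql5 (chr11:115892595-115933477, minus strand), a DNA helicase, had 20.7 and 18.2 CPM in NC and 25.2, 25.9 and 24.6 CPM (0.38, SE 0.11). In Tmem169 and Recql5 the exposed libraries lay closer to each other than to either NC library. Hspbp1, a regulator of Hsp70, had 65.2 and 70.9 CPM in NC and 79.6, 78.1 and 83.2 CPM (0.24, SE 0.07). Grik5, a kainate receptor subunit, had 62.4 and 62.5 CPM in NC and 70.7, 71.7 and 71.0 CPM (0.19, SE 0.06). The remaining ones were Slc39a13, a zinc transporter, at 0.45, Ccsap, a spindle protein, at 0.41, Skiv2l, an RNA helicase, at 0.23, Rabggtb, a subunit of the Rab prenyl transferase, at 0.21 and Polrmt, the mitochondrial RNA polymerase, at 0.21. On the TPM scale, relative to the median of all genes, Recql5, Hspbp1, Slc39a13 and Polrmt lay below NC.

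The genes chosen for lower values in I3-E3-SRS, which include Pi4ka and Olfr729, did not pass in the main fit either. Crebbp (chr16:4081328-4213997, minus strand), a histone acetyltransferase that works with CREB, had 82.7 and 88.1 CPM in NC and 71.6, 69.1 and 65.4 CPM in I3-E3-SRS (log2 fold change -0.32, SE 0.07). Med14, of the Mediator complex, had 105 and 103 CPM in NC and 92.5, 89.3 and 89.3 CPM (-0.20, SE 0.06), and Foxp1, a forkhead factor, had 105 and 113 CPM and 94.6, 94.3 and 93.7 CPM (-0.21, SE 0.06). Zfp189, a zinc finger gene, had 4.32 and 6.61 CPM in NC and 2.74, 2.91 and 2.24 CPM (-1.08, SE 0.28). Each exposed library was below both NC libraries in all 4, as the rule for choosing them requires. Cldn12, a claudin, had 30.8 and 27.6 CPM in NC and 21.7, 22.7 and 22.8 CPM (-0.38, SE 0.10). Zfp647 was at -0.52, Cnrip1, which binds the cannabinoid receptor, at -0.34, Fry at -0.27, Fig4, a phosphoinositide phosphatase, at -0.26, and Ext1, of heparan sulfate synthesis, at -0.23, which lay above NC on the TPM scale. Adjusted p was 1.00 for every gene in these 2 directions other than Trappc8 and Olfr729.

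**Figure D5:**
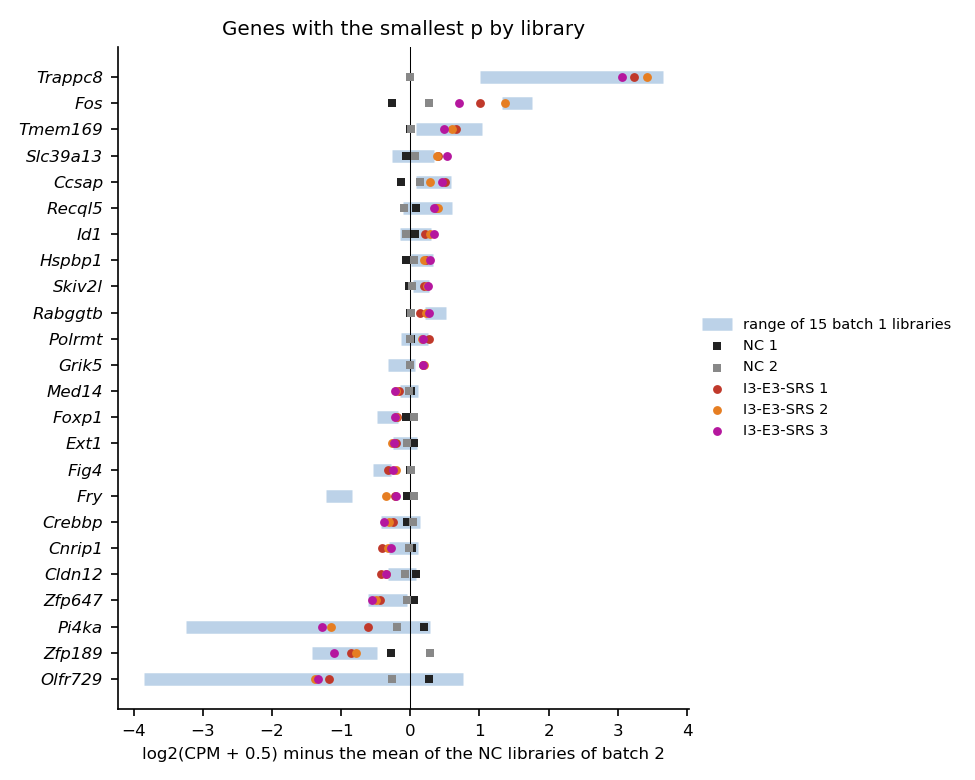
Levels in each library of the 24 genes with a sequence of their own and the smallest p, 12 in each direction, as log2(CPM + 0.5) minus the mean of the NC libraries of batch 2, with the range of the 15 batch 1 libraries as pale bars. All circles lie to one side of both squares, as the rule for choosing these genes requires, and the bars of Trappc8, Pi4ka and Olfr729 span more than 2 on this scale.

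The precision of a difference depended on the level. The 95% interval lay within 1 of zero on the log2 scale for 10370 of 12031 genes (86.2%) and within 0.6 for 8938 (74.3%). For 2547 genes of at least 100 CPM it lay within 1 in 98.1%, for 6604 genes from 10 to 100 CPM in 97.4%, and for 2880 genes under 10 CPM in 49.9%. The median SE was 0.07, 0.10 and 0.32 in these classes. Fos and Trappc8 belong to the lowest class, in which the interval is widest.

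The difference from I2-E2, the single-laser setting of nearest intensity among those sequenced, was also tested. I2-E2 used the pump laser without the Stokes laser, through an objective of lower magnification and numerical aperture. Its average intensity and its energy per area were both lower than those of I3-E3-SRS. The test took the change against NC in batch 2 minus the change against NC in batch 1, with 3 I2-E2 and 3 NC libraries in batch 1. Lasers, objective, intensity, energy per area and batch differed together, and their separate effects were not tested. The 2 contrasts share no controls. None of 12823 genes (0%) passed with edgeR, and 609 (4.75%) had an unadjusted p under 0.05, while limma-trend called 1 and DESeq2 called 4. Of genes with a sequence of their own, Trappc8 had the smallest p, with 0 in both batch 2 controls, and its adjusted p for the difference was 0.10. Tmem169 had a difference of 1.16 (SE 0.24). Its log2 fold change was 0.63 in I3-E3-SRS and -0.54 in I2-E2. Mylip, a ubiquitin ligase, had a difference of 1.00 (SE 0.24) from 0.26 and -0.75, Smpd4, a sphingomyelinase, 0.44 (SE 0.11) from 0.29 and -0.14, and Rras2, a Ras family GTPase, -0.36 (SE 0.10) from -0.13 and 0.23. For Tmem169 the adjusted p was 0.37 and for the last 3 it was 0.81.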

How the data were processed

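RNA of N2A cells was sequenced in bulk. The authors quantified each library with Salmon, and deposited for every transcript an estimated count and a TPM value. Salmon's options, its genome build and transcript release were not given in the sources read here. Of 107368 transcripts 98.6% were found in GENCODE vM21 (GRCm38), whose names and coordinates are used, and unmatched ones held 0.68% to 0.75% of counts in batch 2. Estimated counts were summed per gene, rounded, filtered with edgeR's filterByExpr at a minimum count of 10, scaled by TMM and tested with edgeR's quasi-likelihood test with group as the only factor, on the 5 libraries of batch 2 with 3 residual degrees of freedom (common biological coefficient of variation 11.5%). The difference from I2-E2 was fitted on all 20 libraries with a mean per group. Benjamini-Hochberg adjustment covered every tested gene, at a threshold of 0.05. The deposited TPM values were used for levels per length and in an alternative. Only the edgeR test on the batch 2 libraries was tested on simulated data, drawn with the common variation for every gene. Intervals cover 95% and floors are 3 counts.

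Uniqueness is the percent of a gene's 31-base words found in no other gene of GENCODE vM21, with 95 as the limit. Named genes are, among genes past that limit, the 12 with the smallest p in each direction whose exposed libraries lie on one side of both NC libraries, the 26 markers, the highest and lowest member of each of 31 lists among those of at least 10 mean CPM, of which only some are printed, and the 5 genes with the smallest p for the difference from I2-E2. Genes with only an identifier were not named. A few genes that the rule or the lists hold are not reported here. Members and lists were chosen with earlier results of these data known. Alternatives were 2 limma fits, DESeq2, other scalings and filters, unique genes only, all libraries in 1 fit, log2(TPM + 1), a replicate block and leaving out each library. Deviations of same-numbered libraries from their group means had correlations of -0.051 and 0.0038. With 2 NC libraries these deviations mirror each other, so the check cannot show whether same-numbered libraries are pairs. The labels do not call them pairs, and they were not read as such. Python 3.11.15 (with pandas 2.3.3, matplotlib 3.10.9, scipy 1.17.1 and numpy 2.4.6) and R 4.3.3 (with DESeq2 1.42.0, limma 3.58.1 and edgeR 4.0.16) were used.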

Additional observations from a re-analysis of the deposited data

How the results depend on the processing

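The count of genes past the threshold was 0 in the main fit and 0 with limma-voom, limma-trend, DESeq2 size factors in edgeR, library totals and a minimum count of 50. It was 15 with DESeq2, 194 with no filter on low counts, 3 with unique genes only, 19 with all 20 libraries in 1 fit, 1 on log2(TPM + 1), and 1 with unique genes only and no NC replicate 1, a setting added after the data were seen. With the replicate block it was 6, and the block gave no call among genes with a sequence of their own. Leaving out 1 library gave 0 to 671 genes, 671 without NC replicate 2 and 0 otherwise, and of the 671 genes 19 had a sequence of their own. Of 194 genes without a filter 4 had one, and of 19 genes in the 20-library fit 1 had one. For the difference from I2-E2 the count was 0 and became 1 with limma-trend, 4 with DESeq2, 261 with no filter, 1 with unique genes only and 0 to 219 on leaving out a library, 219 without NC replicate 2. The cause of these differences was not tested.

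Of the 46 genes among the markers and the genes with the smallest p, 21 kept their sign in all 17 alternatives. On log2(TPM + 1), where the median of all genes moved by 0.33 and values are given relative to it, the sign turned for Gadd45a (-0.035), Dnajb1 (0.15), Hspa8 (-0.14), Mdm2 (-0.11), Txnrd1 (0.040), Hsp90aa1 (-0.800), Atf3 (-0.29), Hspa5 (-0.064), Pcna (0.057), Gclm (-0.52), Hsph1 (-0.34), Mki67 (0.22), Srxn1 (-0.45), Jun (0.16), Recql5 (-0.071), Hspbp1 (-0.53), Slc39a13 (-0.24), Polrmt (-0.11) and Ext1 (0.087). Pseudogenes held 25.2% of the TPM of NC replicate 1 and 9.49% to 9.81% in the other libraries. With library totals Pcna was at 0.0015 and Mki67 at 0.0025, and with no filter Pcna was at 0.0003. With the replicate block Nqo1 was at -0.047, Hspa5 at -0.0065 and Mki67 at 0.082. With unique genes only and no NC replicate 1, Mdm2 was at -0.019, Txnrd1 at 0.0052 and Atf3 at -0.032. Leaving out 1 library moved Egr1 from -0.76 to 0.053, Nqo1 from -0.047 to 0.065, Hmox1 from -0.012 to 0.11, Dnajb1 from -0.17 to 0.041, Hspa8 from -0.031 to 0.086, Mdm2 from -0.032 to 0.19, Hsp90aa1 from -0.034 to 0.066, Atf3 from -0.048 to 0.47, Hspa5 from -0.0062 to 0.050, Pcna from -0.038 to 0.015, Hsph1 from -0.028 to 0.051, Mki67 from -0.078 to 0.082, Trib3 from -0.35 to 0.046, Srxn1 from -0.11 to 0.29, Txnip from -0.081 to 0.034, Jun from -0.12 to 0.021 and Ccnd1 from -0.066 to 0.0031. Of 22 lists with at least 5 tested genes the median of 11 moved by more than the spread between libraries in some alternative. Precision is limited by 2 controls and by levels under 10 CPM, where the median interval reaches 1.69-fold to either side.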

Other observations

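Gene groups differed between the batches in exposed and unexposed libraries alike. Of 24 cholesterol synthesis genes 23 (95.8%) were higher in all 5 libraries of batch 2 than in all 15 of batch 1, beside 920 of 12823 genes (7.17%) overall. Of 34 NRF2 targets 20 (58.8%) were higher in the same way and 0 lower. Srxn1 was at 7.71 to 12.9 CPM in batch 1 and at 19.99 to 26.5 CPM in the NC and 22.5 to 25.9 CPM in the I3-E3-SRS libraries of batch 2. Hmox1 was at 42.4 to 56.3 CPM in batch 1, 79.6 to 87.0 CPM in NC of batch 2 and 79.9 to 91.6 CPM in I3-E3-SRS. Fos went the other way, with 5.55 to 7.65 CPM in batch 1 and 1.503 and 2.38 CPM in NC of batch 2.

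Heat shock genes held 9 of 31 that were lower in all batch 2 libraries (29.0%, beside 732 of 12823 genes, 5.71%, overall) and 0 higher, and the unfolded protein and integrated stress list held 11 of 36 higher and 7 lower. Batch and its growth, library and sequencing conditions cannot be told apart, and the list counts were made after the values of the markers were seen.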
